A study of Homo sapiens with 6 samples.

Results

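The genes described here are the ZNF zinc finger genes that gave signal in U937T:PLZF-RARa cells, 234 genes of the 9836 for which a probe set was tested. A gene was taken if its symbol is ZNF followed by a number, with or without a letter, if it is neither a pseudogene nor an antisense transcript, and if a probe set naming only that gene had an intensity above 16 on at least 3 of the 6 arrays. Each gene is represented by the probe set with the highest mean log2 intensity. The array names 452 such ZNF genes, of which 218 lay below that limit and are not described further. The members were therefore chosen by their level, not by their difference between groups, and their levels are given as a description.

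The cells derive from the human monocytic line U937 and carry an engineered construct from which the fusion protein PLZF-RARA is made once tetracycline is removed. PLZF-RARA joins the zinc finger repressor PLZF (ZBTB16) to the retinoic acid receptor alpha and is found in a rare acute promyelocytic leukaemia. Of the 6 samples, 3 were uninduced, kept in medium with tetracycline, and 3 were induced by its removal for 48 h. All 6 came from the same engineered line, grown with puromycin and G418, and 1 Affymetrix expression array was used per sample. Replicates are numbered in the labels, with no word on whether they grew as separate cultures. The p-values therefore cover the spread among these 6 samples, which may be technical, and 3 arrays a group limit the precision. Whether fewer cells or less RNA per cell lay behind a lower signal cannot be told apart.

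Most ZNF genes encode proteins with arrays of C2H2 zinc fingers, in which a cysteine and a histidine pair hold a zinc ion and the finger reads a few bases of DNA. The largest class also has a KRAB box, which binds the corepressor TRIM28. TRIM28 in turn brings in the histone methyltransferase SETDB1 and HP1 proteins, and this pathway is best known for silencing retroelements. Many KRAB genes lie side by side in clusters on chromosome 19 that grew by gene duplication. A smaller class carries a SCAN domain, through which such proteins pair with each other. The ZNF name is also borne by proteins outside these classes, among them ribosome assembly factors, a ubiquitin ligase and the LIM domain protein ZNF185.

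Facts of the arrays that bear on the members are few. Across the 234 genes the correlation between arrays was 0.9942 to 0.9972 within a group and 0.939 to 0.9431 between groups, a description over genes that share each array. The median log2 intensity of the members was 7.56 to 7.67 on the uninduced arrays and 7.50 to 7.55 on the induced arrays. For the GAPDH control, a measure of RNA quality, the 3' signal exceeded the 5' signal by 0.503 ± 0.025 (log2) in uninduced and 0.579 ± 0.034 in induced samples (SD, n = 3 each). For the ACTB control the gap was larger, 1.248 ± 0.083 in uninduced and 1.406 ± 0.102 in induced samples (SD, n = 3 each). The part of RNA quality in the results was not tested. As a check of the induction, 1 of 5 RARA probe sets had a mean log2 intensity of 1.87 before and 7.58 after it, another went from 5.16 to 3.99 (limma, adjusted p = 1.1e-05), and of the other 3, 2 did not pass and 1 lay below the limit. ZBTB16 went from 5.25 to 3.29. Of 10 markers of the monocytic and granulocytic line 7 were measured, of which 6 fell and 1 rose, against 30.7% and 35.8% of all genes. Among the 6, SPI1 passed through the uninduced group alone, so its fall was fixed by the way it was chosen. ELANE, at 12.92 and 10.12, and LYZ, at 13.98 and 13.13, were bright in both groups, while MPO and FCGR1A lay below the limit. The part of this shift in the ZNF results was not tested. Among the markers of other lineages reported here, COL1A1 and PAX5 were above the limit and 6 were below it.

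Induction was followed by changes in both directions among the ZNF genes. In induced samples 62 of the 234 were higher and 64 lower at an adjusted p under 0.05 (limma, Benjamini-Hochberg over all 20552 tested probe sets), and 108 did not pass the test. The share called was 53.8%, made of 26.5% higher and 27.4% lower. Over all genes tested 66.5% were called, 35.8% higher and 30.7% lower, and over all probe sets 62.5%, with 34.6% higher and 27.9% lower. After quantile normalization of the arrays the ZNF split was 58 higher and 99 lower, while all genes had 3445 higher and 3979 lower, so the balance between directions depended on the scaling in both. A change of at least 2-fold was reached by 13 of the higher and 15 of the lower members, against 10.8% and 8.82% of all genes. The groups did not overlap for 143 members, or 61.1%, against 74.4% of all genes. The differences ranged from -3.24 to 2.44 on the log2 scale, with a median of 0.0023 against 0.017 over all genes, and the median size regardless of sign was 0.31 against 0.42.

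**Figure D1:**
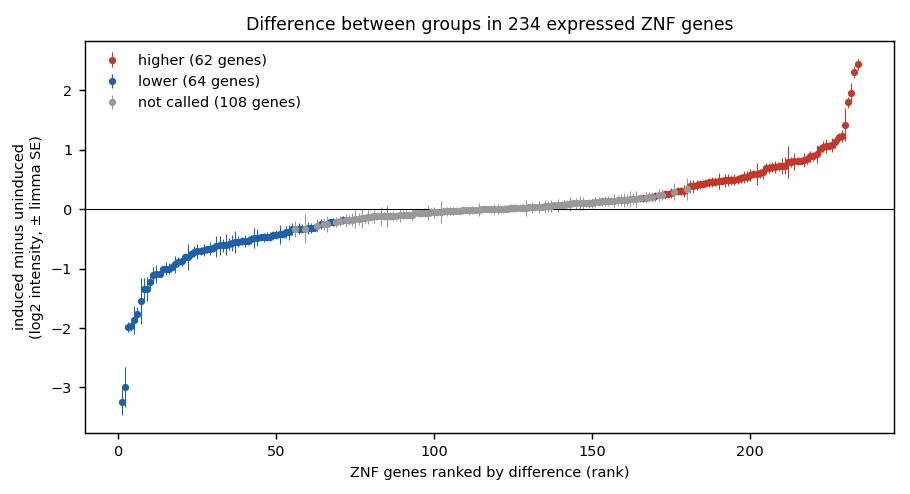
The difference of induced minus uninduced log2 intensity (vertical axis) of 234 ZNF genes, ranked along the horizontal axis, with bars for the limma standard error. The 62 genes called higher and the 64 called lower form tails of similar length around 108 genes that were not called.

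All 6 arrays lay above the limit for 222 members. ZNF513 passed through the induced group and ZNF527 through the uninduced group alone, so these had to differ by the way they were chosen, and without them the counts were 61 higher and 63 lower. Just inside the limit were ZNF43, ZNF19 and ZNF687, where the intensity that decided, on the array ranked 3 of 6, was 16.6, 16.9 and 16.9. Just outside were ZNF440, ZNF668 and ZNF577, with 15.4, 15.3 and 15.3. Some probe sets hardly moved at all. The highest and lowest of the 6 arrays lay less than 0.1 apart on the log2 scale for 12 members, or 5.13%, against 2.40% of all genes, and 0 of these were called by limma. Their mean log2 intensities ran from 4.08 to 7.81.

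The share called was larger at higher levels, with 26.2% of members called under a mean log2 intensity of 6 and 73.7% at 8 and above, against 43.3% and 71.7% of all genes. Among the 61 members under 6 3 were higher and 13 lower, where all genes in that range had 25.8% higher and 17.5% lower. The called members there include ZNF513 (higher) and ZNF527 (lower), which had to differ by the way they were chosen. Such genes were also kept among all genes in that range, so both sets of shares rest partly on them. From 6 to 8 there were 17 higher and 20 lower of 74, against 34.5% and 30.6% of all genes. At 8 and above 42 of 99 members were higher and 31 lower, which is 42.4% and 31.3%, against 38.2% and 33.5%. The members' smaller share of calls thus lay in the ranges below 8. ZNF genes were also dim more often, with 99 of 234 at 8 or above against 6614 of 9836 genes.

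**Figure D2:**
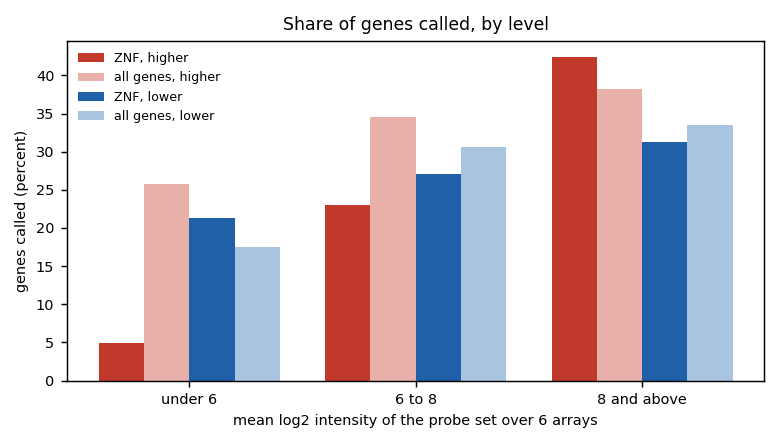
The percentage of genes called higher (red) or lower (blue) in induced samples, for ZNF genes (dark bars) and all genes tested (pale bars), by mean log2 intensity of the probe set over 6 arrays. Among dim probe sets 4.92% of the ZNF genes were called higher, against 25.8% of all genes, while at 8 and above the shares were 42.4% and 38.2%. Both shares of dim probe sets include genes that had to differ by the way they were chosen.

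The promoter of each of the 2 largest rises and the 2 largest falls is shown here, as the 250 bases before the transcript start in the RefSeq table of GRCh38.p14, read 5′ to 3′ on the gene's strand. Capitals mark AGGTCA, the half-site that retinoid receptors read, CACGTG, the E-box of MYC, and CCGGAAGT, a site of ETS factors, on either strand. The windows are chr20:53593840-53594089 (minus strand), chr1:23369837-23370086 (minus strand), chr19:45076479-45076728 (minus strand) and chr10:31031866-31032115 (minus strand).
ZNF217: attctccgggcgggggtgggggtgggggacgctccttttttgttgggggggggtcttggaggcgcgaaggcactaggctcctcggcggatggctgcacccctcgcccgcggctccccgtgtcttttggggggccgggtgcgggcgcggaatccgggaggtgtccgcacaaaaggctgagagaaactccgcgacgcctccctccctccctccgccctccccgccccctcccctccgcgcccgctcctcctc
ZNF436: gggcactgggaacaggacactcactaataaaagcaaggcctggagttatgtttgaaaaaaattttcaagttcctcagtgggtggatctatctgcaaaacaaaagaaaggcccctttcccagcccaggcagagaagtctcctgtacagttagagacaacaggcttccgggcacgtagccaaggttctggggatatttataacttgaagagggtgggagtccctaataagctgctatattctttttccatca
ZNF296: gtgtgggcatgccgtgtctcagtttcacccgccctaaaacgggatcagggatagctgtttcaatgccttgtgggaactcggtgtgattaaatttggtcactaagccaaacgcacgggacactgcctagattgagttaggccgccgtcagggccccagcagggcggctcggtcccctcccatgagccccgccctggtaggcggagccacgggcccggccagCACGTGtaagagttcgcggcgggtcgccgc
ZNF438: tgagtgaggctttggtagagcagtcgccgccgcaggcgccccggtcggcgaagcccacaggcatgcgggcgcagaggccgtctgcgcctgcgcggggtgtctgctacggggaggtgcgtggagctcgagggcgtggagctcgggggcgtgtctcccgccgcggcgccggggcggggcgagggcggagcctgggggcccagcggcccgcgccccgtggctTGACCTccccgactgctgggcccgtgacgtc
The ZNF217 and ZNF436 windows, of the genes that rose, hold none of the 3 motifs. The ZNF296 window holds a CACGTG and the ZNF438 window an AGGTCA, read on the opposite strand as TGACCT. The ZNF436 window has 2 CG pairs, where those of ZNF217, ZNF296 and ZNF438 have 25, 20 and 34. Of the 234 members 205 had an entry in the promoter table, with a median of 18 CG pairs against 11 over all 27305 promoters and 21 over the 8160 of tested genes. AGGTCA stood in 7 of the 55 windows of genes that fell (12.7%), in 2 of 54 of genes that rose (3.70%) and in 3 of 96 of genes that were not called, against 12.1% of all promoters and 7.90% of those of tested genes. CACGTG stood in 7 of 55, 1 of 54 and 4 of 96, against 6.49% of all and 9.41% of tested promoters. CCGGAAGT stood in 26 of the 205, or 12.7%, against 3.64% of all and 8.15% of tested promoters. These are counts of letters in a fixed window, and binding was not measured.

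ZNF217, a cofactor of the CoREST and CtBP repressor complexes and an oncogene in breast cancer, had the largest rise. Its log2 intensity was 8.91, 8.90 and 8.64 on the uninduced arrays and 11.27, 11.32 and 11.18 on the induced arrays. The groups lay far apart, and the gene was 5.44-fold higher (2.44 ± 0.09 SE on the log2 scale, limma, adjusted p = 2.27e-06). ZNF436, a KRAB protein, read 5.34, 5.60 and 5.70 before and 7.91, 7.86 and 7.79 after induction, 4.93-fold higher (adjusted p = 4.01e-06). Its second probe set rose by 2.25. ZNF780A, also a KRAB protein, went from 4.28, 4.47 and 3.87 to 6.14, 6.02 and 6.32, with 1 uninduced array below the limit, so no fold is given (difference 1.95, adjusted p = 5.51e-05). ZNF513, a regulator of photoreceptor genes, was below the limit on all uninduced arrays and at least 1.73-fold higher.

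ZNF785, a KRAB protein, went from 5.45, 6.14 and 5.18 to 7.39, 6.96 and 6.68, or 2.68-fold (limma, adjusted p = 0.0034). Its uninduced arrays were the most scattered among the 12 largest rises, yet all lay under the induced ones. A second ZNF785 probe set rose by 1.25 and the other differed by 0.22 and did not pass (adjusted p = 0.101). ZNF641 (2.35-fold), the LIM protein ZNF185 (2.31-fold), ZNF362 (2.18-fold), ZNF319 (2.12-fold), ZNF451 (2.10-fold), ZNF254 (2.09-fold) and ZNF654 (2.08-fold) completed the 12 largest rises, with limma adjusted p from 9.09e-06 to 0.00025. For ZNF654 all 5 tested probe sets rose, by 0.57 to 1.57. For ZNF254, 3 of 4 tested probe sets rose and the other lay at 5.72 in both groups. For ZNF641 the second probe set differed by 0.25 and did not pass (adjusted p = 0.110).

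ZNF296 had the largest measured fall. Its log2 intensity was 7.35, 6.93 and 7.15 on the uninduced arrays and 4.20, 3.42 and 4.07 on the induced arrays, with 1 induced array below the limit, so no fold is given (difference -3.24 ± 0.21 SE, limma, adjusted p = 2.00e-05). ZNF438 went from 8.02, 8.31 and 7.97 to 5.61, 5.44 and 4.27, 7.95-fold lower (adjusted p = 2.46e-04). The induced arrays of ZNF438 spread widely, with replicate 3 well below the others, and leaving out 1 array at a time gave 5.94-fold to 9.47-fold. Its dimmer probe set fell by 0.90, and the mean of both differed by -1.95 (limma, adjusted p = 1.26e-05). ZNF536, a repressor known to restrain retinoic acid-induced transcription during neuronal differentiation, went from 9.35, 9.28 and 9.08 to 7.19, 7.26 and 7.33, 3.95-fold lower (adjusted p = 4.03e-06). All 3 of its tested probe sets fell, the other two from 8.32 to 5.82 and from 6.93 to 5.90. ZNF593, an assembly factor of the large ribosomal subunit, went from 12.42, 12.28 and 12.19 to 10.35, 10.34 and 10.29, 3.92-fold lower (adjusted p = 2.38e-06).

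ZNF202, a SCAN and KRAB repressor of lipid metabolism genes, went from 5.71, 5.75 and 5.36 to 3.22, 4.14 and 3.85, with 2 of 3 induced arrays below the limit (difference -1.87, limma, adjusted p = 4.20e-04). ZNF692 was 3.41-fold lower (adjusted p = 3.24e-05). ZNF124, a KRAB protein, went from 7.45, 7.54 and 6.84 to 6.45, 4.90 and 5.85, 2.91-fold lower (adjusted p = 0.0115), and its induced arrays were the most scattered of the 12 largest falls. A second ZNF124 probe set fell by 0.80. With no filter on low values ZNF124 did not pass (adjusted p = 0.0697). ZNF165, a SCAN protein made in testis and tumours, differed by -1.34 with 1 induced array below the limit. ZNF32 (2.53-fold), ZNF23 (2.33-fold), ZNF587B (2.14-fold) and ZNF740 (2.13-fold) completed the 12 largest falls, with adjusted p from 1.30e-04 to 9.83e-04.

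**Figure D3:**
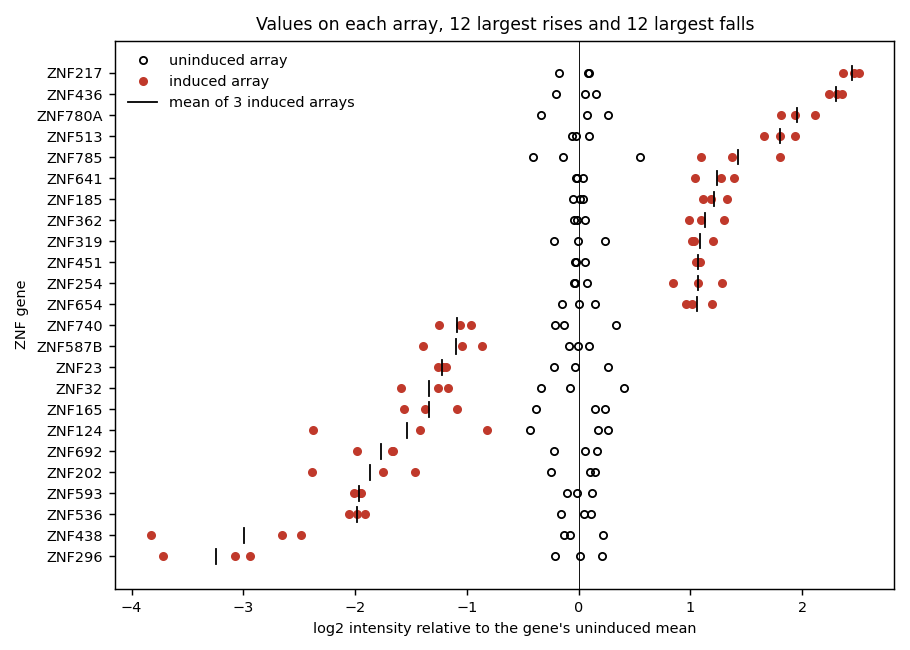
Log2 intensity on each array relative to the gene's mean over the 3 uninduced arrays (horizontal axis), for the 12 largest rises and 12 largest falls among ZNF genes. Open circles are uninduced arrays, filled circles induced arrays and ticks the induced mean, with genes taken only where the groups did not overlap, as for 74.4% of all genes. The widest induced scatter is that of ZNF124 and ZNF438.

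Members known from chromatin complexes mostly rose. Of the 10 measured genes of that list 7 were higher and 0 lower, with a median of 0.48, against 35.8% higher over all genes. After quantile normalization 7 were higher and 1 lower. Beside ZNF217, the list held ZNF451, a SUMO ligase, which read 9.66, 9.56 and 9.57 before and 10.68, 10.67 and 10.65 after induction (limma, adjusted p = 9.09e-06). All 3 ZNF451 probe sets rose, by 1.07, 0.48 and 2.65. ZNF518A read 10.11, 10.18 and 10.02 and then 11.19, 11.01 and 11.14, 2.01-fold higher (adjusted p = 3.29e-05). ZNF618, a partner of UHRF2 that binds hydroxymethylated DNA, was 1.63-fold higher (adjusted p = 5.99e-04), though its second probe set differed by 0.30 and did not pass (adjusted p = 0.0546).

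Smaller rises in that list were those of ZNF827, which brings the NuRD complex to telomeres (0.54), ZNF592, which works with ZMYND8 (0.42), and ZNF644, a partner of the methyltransferases G9a and GLP (0.25). The other 2 probe sets of ZNF592 differed by -0.09 and -0.26, those of ZNF827 by 0.09 and 0.16 and the second of ZNF644 by 0.13, and none of the 5 passed. With the mean over probe sets the list had 6 higher, 0 lower and a median of 0.23. ZNF687, which pairs with ZNF592 in the same complex, lay at the limit and differed by -0.12 (limma, adjusted p = 0.168). ZNF516 differed by -0.12 with a wide spread between arrays (adjusted p = 0.625), and ZNF609 by -0.01 (adjusted p = 0.884).

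The list of sequence-specific factors, most of them known as activators, had 8 measured members, with 4 higher, 1 lower and 3 not called, and with 4 higher and 3 lower after quantile normalization. Over all genes 35.8% were higher and 30.7% lower. ZNF24, a SCAN protein known to repress VEGFA, read 8.71, 8.45 and 8.44 before induction and a mean of 9.42 ± 0.07 (SD, n = 3) after it, 1.85-fold higher (limma, adjusted p = 1.72e-04). ZNF148, which binds GC-rich promoters, was 1.65-fold higher on its brightest probe set (adjusted p = 1.20e-04), with all 7 of its tested probe sets moving up, by 0.23 to 0.98, and 4 of them past the test. ZNF143, an activator of many housekeeping and small nuclear RNA genes, rose by 0.47, from 9.09, 9.21 and 9.02 to 9.57, 9.60 and 9.54. ZNF76, its close relative, fell by 0.42 on the log2 scale, from 7.50, 7.55 and 7.56 to 7.08, 7.08 and 7.21 (adjusted p = 0.0011), so this related pair moved in opposite directions. ZNF281, a GC-box factor, rose by 0.30, while ZNF384, ZNF219 and ZNF335 differed by 0.10, -0.02 and 0.0013 and did not pass.

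Genes of RNA and ribosome biology that carry a ZNF name fell more often than they rose. Of 12 measured genes 6 fell, 2 rose and 4 did not pass, with a median of -0.25. Over all genes 30.7% fell. The 4 with the smallest adjusted p all fell, and each is known from ribosomes or the nucleolus. Beside ZNF593 these were ZNF330, a nucleolar protein, at 12.60, 12.67 and 12.58 before and 11.70, 11.64 and 11.62 after induction, 1.95-fold lower (limma, adjusted p = 1.62e-05). ZNF598, the ubiquitin ligase that senses collided ribosomes, went from 8.77, 8.99 and 8.67 to 7.89, 7.73 and 7.82, 1.998-fold lower (adjusted p = 1.17e-04). ZNF622, a late assembly factor of the large subunit, went from 10.38, 10.37 and 10.22 to 9.65, 9.63 and 9.65, 1.60-fold lower (adjusted p = 1.23e-04). None of these groups overlapped, as for 74.4% of all genes, and the induced arrays were the tighter of the pair in all 4. Genes picked by a small adjusted p tend to have such groups, so this is a description only.

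The windows upstream of ZNF593 and ZNF330 are shown because both hold TGACGTCA, the site of CREB and ATF factors, marked in capitals. This motif was added after the sequences had been seen. The windows are chr1:26169658-26169907 (plus strand) and chr4:141220645-141220894 (plus strand).
ZNF593: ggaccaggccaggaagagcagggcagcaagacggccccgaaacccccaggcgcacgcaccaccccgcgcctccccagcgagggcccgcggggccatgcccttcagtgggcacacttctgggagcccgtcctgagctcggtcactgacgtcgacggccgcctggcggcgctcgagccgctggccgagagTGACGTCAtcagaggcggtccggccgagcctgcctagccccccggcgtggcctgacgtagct
ZNF330: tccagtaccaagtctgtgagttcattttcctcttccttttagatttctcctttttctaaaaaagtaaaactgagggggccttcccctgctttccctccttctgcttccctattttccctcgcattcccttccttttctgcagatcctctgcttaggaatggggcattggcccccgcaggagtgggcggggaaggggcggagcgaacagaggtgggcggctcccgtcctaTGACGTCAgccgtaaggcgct
TGACGTCA stood in 3 of the 55 windows of members that fell, in 2 of 54 of those that rose and in 3 of 96 of the others, against 1.77% of all promoters and 3.06% of those of tested genes. The site overlaps no other motif searched.

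Also in the list, ZNF326, which couples splicing to transcript elongation, fell by 0.31 on its brightest probe set, and ZNF706 fell by 0.33. ZNF326 is the 1 member whose called probe sets went both ways, since its second probe set rose by 0.37 (limma, adjusted p = 0.0176), and the mean over its probe sets did not pass (adjusted p = 0.292). ZNF106, an RNA-binding protein, rose by 0.62, and ZNF638, which acts in splicing and in the silencing of unintegrated retroviral DNA, by 0.25. ZNF346, a binder of double-stranded RNA, ZNF277, the spindle protein ZNF207 and ZNF385A differed by 0.24, -0.18, -0.05 and 0.03 on their brightest probe sets and did not pass. Other probe sets did pass for several of these genes. For ZNF207 4 of 8 rose, by 0.56 to 1.39 (limma, adjusted p from 3.07e-05 to 0.0206). The second ZNF346 probe set fell by 0.82 on the log2 scale (adjusted p = 0.0019), and that of ZNF277 by 0.22 (adjusted p = 0.0493). The dimmest of 4 ZNF638 probe sets rose by 3.11.

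In the list of ZNF genes linked to blood cells and leukaemia 5 of 13 were measured, of which 3 rose and 0 fell. Over all genes 35.8% rose and 30.7% fell. After quantile normalization 2 rose and 1 fell. ZNF267 went from 9.45, 9.48 and 9.40 to 10.14, 9.96 and 9.99, a rise of 0.59 (limma, adjusted p = 3.26e-04). ZNF395 was 1.42-fold higher (adjusted p = 8.72e-04). ZNF224, a KRAB protein that works with WT1, was 1.31-fold higher (adjusted p = 0.0186), and both of its probe sets rose. That call was lost without induced replicate 1, induced replicate 2 or uninduced replicate 1, when the adjusted p was 0.0551 to 0.0597, after quantile normalization (0.0992), with array weights (0.0574) and with no filter (0.0686). ZNF268 and ZNF589, a KRAB protein first found in blood progenitors, differed by 0.10 and -0.03. The others, ZNF521, ZNF423, ZNF300, ZNF467, ZNF331, ZNF365, ZNF366 and ZNF703, were not among the members.

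The list of silencers of repeats and imprinted genes was short and went both ways. Of 6 measured genes 2 were higher and 3 lower, against 35.8% and 30.7% of all genes. The largest of the 3 falls was that of ZNF202 (-1.87), with 2 of 3 induced arrays below the limit. ZNF202 was described above as a repressor of lipid metabolism genes, not as a silencer of repeats. ZNF445, which guards imprinted regions, was 1.63-fold higher (limma, adjusted p = 3.30e-04), but its dimmer probe set differed by -0.40 (adjusted p = 0.0571) and the mean of the pair did not pass (0.15, adjusted p = 0.106). ZNF274, which directs SETDB1 to the ends of other ZNF genes, rose by 0.19 (limma, adjusted p = 0.0417). Its second probe set differed by 0.22 and did not pass (adjusted p = 0.0728). With median centring, a replicate block or any 1 array left out, the list had only 1 gene higher, ZNF445, so the ZNF274 call was lost. ZNF37A fell 2.01-fold, from 8.77, 8.86 and 8.64 to 7.92, 7.77 and 7.55, and its second probe set fell by 1.25. ZNF765 fell by 0.22. For ZNF93, a silencer of LINE elements, the probe set ends in _x_at and stayed between 6.54 and 6.57 on all 6 arrays. It is among the probe sets that hardly moved, with a range under 0.1. Whether it reflects the level of the gene was not tested.

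The proteins that KRAB boxes work through were all measured, 22 of 22 on the list. TRIM28, the central corepressor, read 12.36, 12.24 and 12.01 on the uninduced and 11.99, 12.20 and 12.12 on the induced arrays, so the groups overlapped (difference -0.10 ± 0.11 SE, limma, adjusted p = 0.439). SETDB1 differed by 0.07 ± 0.07 SE (adjusted p = 0.427). ATF7IP, the partner that stabilises SETDB1, read 9.79, 9.83 and 9.74 and then 10.92, 10.87 and 10.99, 2.20-fold higher (adjusted p = 9.58e-06). TASOR, the scaffold of the HUSH silencing complex, was 2.41-fold higher (adjusted p = 8.34e-05). ATRX, a chromatin remodeller at repeats (1.85-fold), HDAC1, a deacetylase (1.57-fold), MORC3, CBX5, CHD4 and ATF7IP2 rose as well.

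The list as a whole had 8 higher, 0 lower and 14 not called, with a median of 0.04. The share of all genes called higher, 35.8%, is about the same as 8 of 22. With median centring 7 were higher and 5 lower, and with quantile normalization 7 and 4. Falls also appeared without rescaling, 3 with array weights, 1 with the mean over probe sets and 1 with trended and robust eBayes. The absence of falls thus depended on the processing. The HUSH subunits PPHLN1 and MPHOSPH8 differed by -0.05 and -0.15 and did not pass, unlike TASOR.

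**Figure D4:**
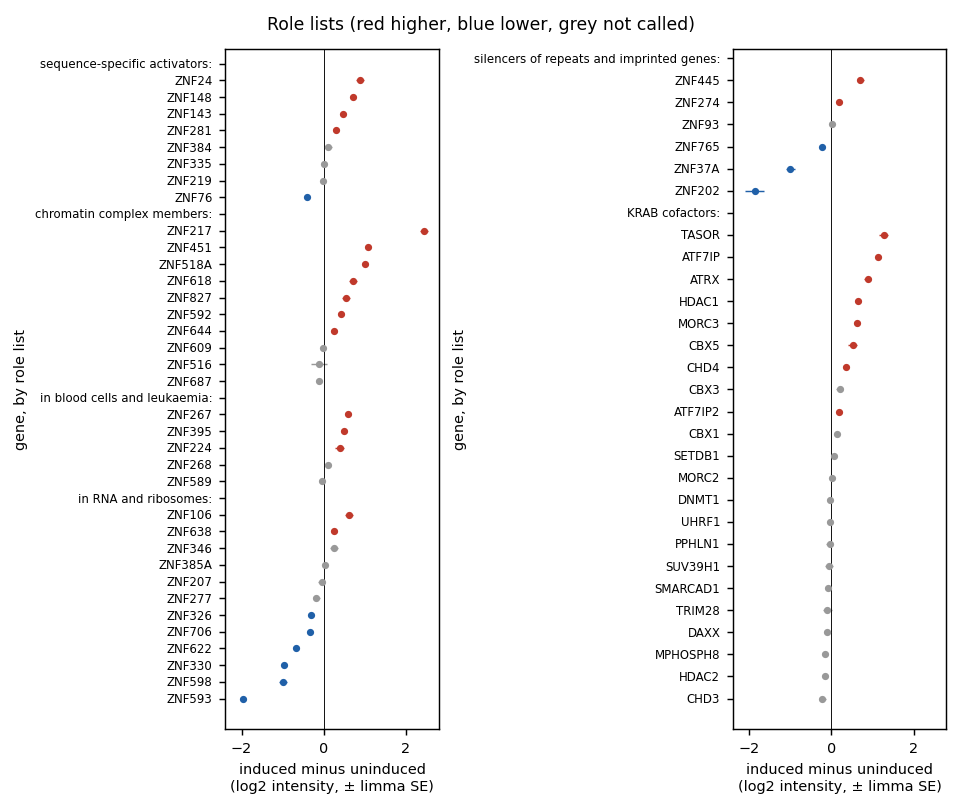
Difference of induced minus uninduced log2 intensity (horizontal axis, bars for the limma standard error) for the genes of the 5 ZNF role lists and the KRAB cofactors. Red points are higher, blue lower and grey not called. ZNF217 at 2.44 and ZNF593 at -1.97 are the extremes, while TRIM28 and SETDB1 lie near 0.

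By domain, 130 members were classed as KRAB proteins and 83 as proteins without a KRAB box, and 21 were left unclassed. The classes come from general knowledge, since no protein sequences were at hand. Of the KRAB genes 28 were higher and 31 lower, or 45.4% called, with differences between -1.87 and 2.30. Of the genes without a KRAB box 27 were higher and 24 lower, or 61.4% called, from -3.24 to 2.44. A 2-fold change was reached by 9 of the 130 and 16 of the 83. Over all genes 66.5% were called. After quantile normalization the KRAB genes split into 24 higher and 55 lower, and the others into 27 and 34. The 13 genes with a SCAN domain had 3 higher and 4 lower.

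Chromosome 19 holds 92 of the 234 members. There 18 were higher and 26 lower (19.6% and 28.3%), against 27.2% and 32.6% of all 648 tested genes of that chromosome. On the other chromosomes 44 of 142 were higher and 38 lower. After quantile normalization the counts were 15 and 41 on chromosome 19 and 43 and 58 elsewhere. Among KRAB genes alone 15 were higher and 17 lower of 72 on chromosome 19, and 13 and 14 of 58 elsewhere.

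Neighbouring ZNF genes were then followed along the chromosomes. A run was defined as ZNF, ZFP, ZSCAN and ZKSCAN genes in the order of the NCBI gene table with at most 3 other protein-coding genes between them, and 13 runs held at least 5 members, 106 members in all. The genes at each end give the run its name, whether or not they were measured. Pairs of successive members were taken from runs of any size, passing over zinc finger genes that were not members. Among 31 such pairs with both genes called, 22 moved the same way and 9 in opposite ways. Over all tested genes with at most 3 others between them, 2148 of 3875 called pairs (55.4%) moved the same way. Member pairs could lie further apart, so the shares are not strictly alike. Neighbours often share sequence, and 70 of the 234 representative probe sets end in _s_at or _x_at, which can bind more than 1 transcript. Counts without such probe sets are therefore given for several runs, but the pairs were not recounted without them.

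The run from ZNF627 to ZNF791 on chromosome 19 held 8 members, of which 6 rose and 0 fell, with a median of 0.48. Of all tested genes on the chromosome 27.2% rose and 32.6% fell. After quantile normalization 4 rose and 0 fell, and without _x_at and _s_at probe sets 4 members were left, of which 4 rose. ZNF791 led it, from 8.71, 8.90 and 8.94 to 9.73, 9.79 and 9.70, 1.85-fold higher (limma, adjusted p = 8.34e-05), and all 3 of its probe sets rose, by 0.89, 0.96 and 1.98. ZNF564 (0.79), ZNF443 (0.69), ZNF627 (0.50), ZNF490 (0.47) and ZNF700 (0.42) rose too, while ZNF44 differed by 0.25 and ZNF136 by -0.05. Apart from ZNF791 and ZNF136, the ends of the range, they were named after their values were seen. All 8 are KRAB genes.

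The run from ZNF565 to ZNF573, further along the same chromosome, held falls but no rises. Apart from ZNF527, whose fall was fixed by the way it was chosen, 4 of 11 members fell and 0 rose, with a median of -0.21. The share that fell was near that of all tested genes on the chromosome, of which 32.6% fell and 27.2% rose. With ZNF527 the counts were 5 of 12. Of the same 12, 9 fell after quantile normalization, 4 with a replicate block and 2 with no filter. Without _x_at and _s_at probe sets 5 of 11 fell, with ZNF527 still among those measured. ZNF529 went from 9.30, 9.18 and 9.02 to 8.31, 8.22 and 8.30, 1.86-fold lower (limma, adjusted p = 1.06e-04), and ZNF570 was the highest at 0.03. The run from ZNF317 to ZNF846 had 3 of 5 lower and 0 higher, with ZNF121 falling 1.69-fold, from 11.92, 11.89 and 11.81 to 11.14, 11.14 and 11.07, and ZNF562 differing by 0.10. On chromosome 10 the run from ZNF248 to ZNF33B had 3 of 5 lower, against 30.7% of all genes, led by ZNF37A, and ZNF25 differed by 0.13. With no filter and in some fits that left out 1 array, 2 of these 5 fell. Without _x_at and _s_at probe sets 2 of 4 fell in this run, and also 2 of 4 in that from ZNF317 to ZNF846.

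Other runs were split. From ZNF577 to ZNF331 the order along the chromosome was 4 falls in a row, ZNF614 (-1.01), ZNF432 (-0.34), ZNF616 (-0.81) and ZNF766 (-0.31), then ZNF701, which did not pass, then 3 rises in a row, ZNF83 (0.43), ZNF611 (0.55) and ZNF160 (0.72). ZNF614 read 8.95, 9.09 and 8.95 and then 7.96, 8.01 and 7.98 (limma, adjusted p = 1.70e-05), and its second probe set fell by 1.35. ZNF160 read 10.59, 10.94 and 10.86 and then 11.75, 11.42 and 11.39 (adjusted p = 0.0024), on a probe set ending in _x_at. Without _x_at and _s_at probe sets the run had 5 members, 3 lower and 0 higher, so its rises were all read on such probe sets. Of all tested genes on chromosome 19, 27.2% rose and 32.6% fell.

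From ZNF264 to ZNF446, 2 of 15 rose and 6 fell, and without _x_at and _s_at probe sets 1 of 10 rose and 2 fell. Of all tested genes on chromosome 19, 27.2% rose and 32.6% fell. With median centring, a replicate block or any 1 array left out, 1 of the 15 rose. ZNF776 rose 1.74-fold, from 10.24, 10.20 and 10.02 to 10.98, 10.84 and 11.04 (limma, adjusted p = 2.17e-04), between neighbours that fell, ZNF551 (-0.57) and ZNF552 (-0.66). ZNF587B, ZNF587 and ZNF814, which follow them, fell by 1.10, 0.54 and 0.69 on the log2 scale. The run from ZNF101 to ZNF254, which has 37 zinc finger genes, held 12 members but only 2 calls, the rises of ZNF708 (0.49) and ZNF254 (1 of 5 without _x_at and _s_at probe sets), while ZNF431 was the lowest at -0.07. After quantile normalization that run had 2 rises and 3 falls.

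On chromosome 7, 4 of 7 members from ZNF722 to ZNF92 rose, with ZNF107 at 0.52, and ZNF117 fell by 0.54 on the log2 scale. Over all genes 35.8% rose and 30.7% fell. Without _x_at and _s_at probe sets 1 of 4 rose and 0 fell. ZNF117 did not pass once _x_at and _s_at probe sets were left out (-0.32, limma, adjusted p = 0.0587). From ZNF786 to ZNF862 the first 2 of 8 members rose (ZNF786 0.73, ZNF398 0.39) and ZNF777 and ZNF746 fell (-0.66 and -0.53). After quantile normalization 5 of these 8 fell, as did 3979 of all 9836 genes. On chromosome 16 ZNF785 rose next to ZNF689, which fell 1.64-fold, from 8.90, 8.77 and 8.59 to 8.02, 8.06 and 8.04. From ZNF283 to ZNF180, ZNF226 was 1.63-fold higher and its neighbour ZNF227 1.19-fold lower, a call that was lost with no filter, with a replicate block (adjusted p = 0.0688) and in 5 of the 6 fits that left out 1 array. From ZNF579 to ZNF580, ZNF580, measured by an _s_at probe set alone, rose 1.79-fold and the adjacent ZNF581 differed by -0.16. On chromosome 12 ZNF26 was 1.499-fold lower and ZNF605 differed by 0.15.

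**Figure D5:**
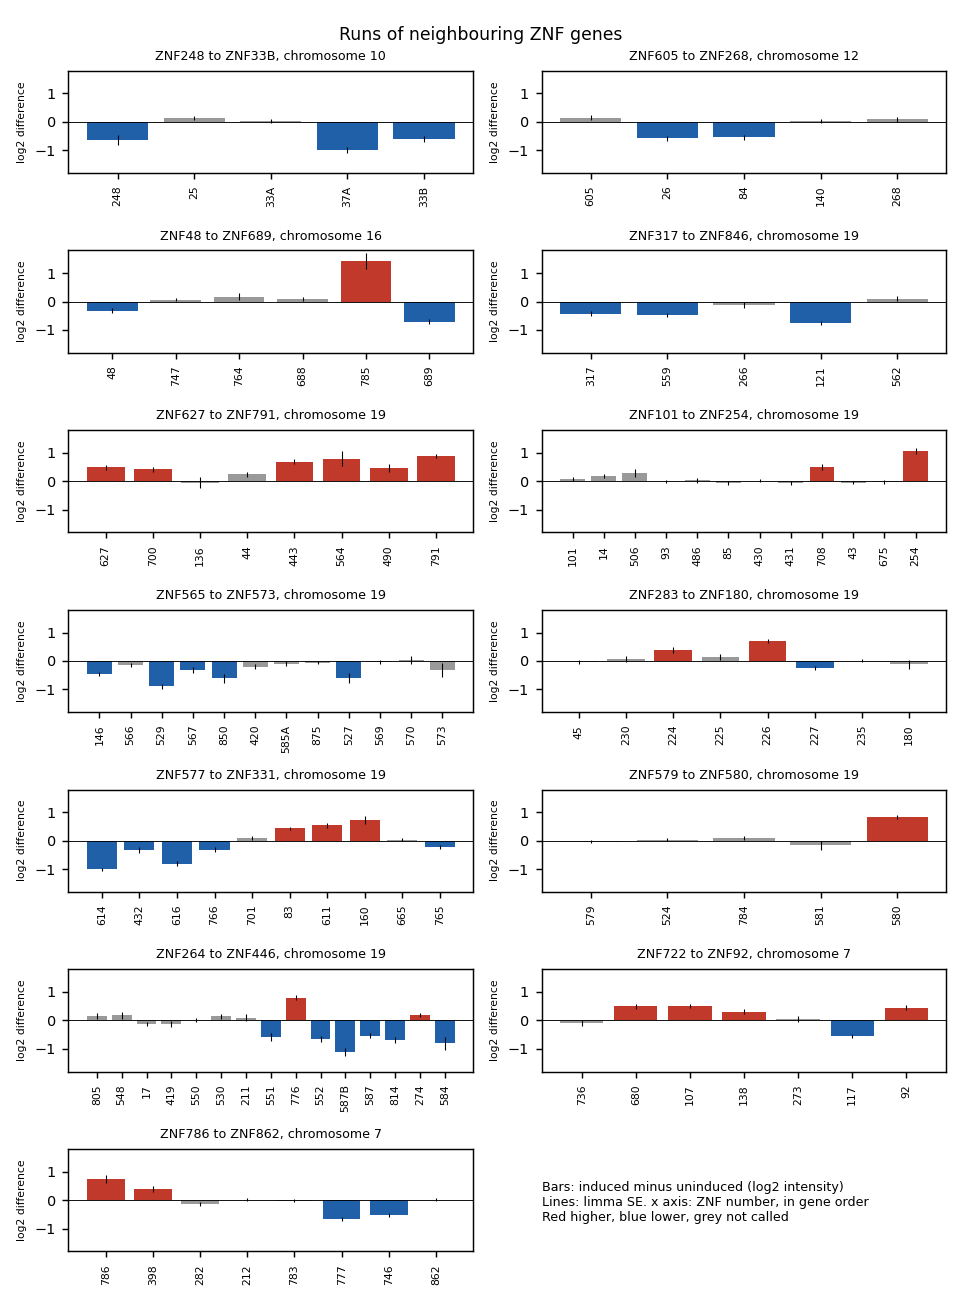
Difference of induced minus uninduced log2 intensity (vertical axis, lines for the limma standard error) of the ZNF genes in 13 runs of neighbours, in gene order along each chromosome. Red bars are higher, blue lower and grey not called. The run from ZNF627 to ZNF791 holds 6 rises and 0 falls, and the one from ZNF565 to ZNF573 holds 5 falls, with that of ZNF527 fixed by its choice, and 0 rises. Both lie on chromosome 19, where 27.2% of tested genes rose and 32.6% fell.

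Several probe sets were tested for many genes. Of the 97 members with over 1 tested probe set 40 had over 1 called, of which 21 had all called sets higher, 18 all lower and 1, ZNF326, both. Over all genes 155 of 2685 went both ways. Every tested probe set was called in the same direction for 31 of the 97. For 12 of the 97 the brightest probe set was not called but another was, and for 20 the brightest was called but no other. A called probe set opposite in sign to the brightest was found for 4.

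Relatives of the ZNF genes under other names also moved in both directions. Of 12 genes named ZFP with a number 4 were higher and 6 lower, or 3 and 6 of 11 without ZFP36L1, which passed through the induced group alone. Over all genes 35.8% were higher and 30.7% lower. They include ZFP36 (1.14), ZFP36L1 (at least 1.86-fold higher) and ZFP36L2 (-1.69), which are CCCH proteins that destabilise mRNA rather than C2H2 factors, and ZFP92, which fell from 9.46 to 5.96 (limma, adjusted p = 1.81e-06). Of 11 ZSCAN genes 4 rose, led by ZSCAN26 (1.48) and ZSCAN31 (1.32), and 1 fell, ZSCAN5A (-0.85). Of 6 ZKSCAN genes 3 rose and 0 fell, among them ZKSCAN5 (0.65) and ZKSCAN8 (0.59). These were named after their values were seen.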

How the data were processed

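The deposited table gives the authors' intensity for each probe set on each array, on a linear scale. The submitters' processing notes name GCRMA, which corrects background by probe sequence, so dim probe sets sit close together and their changes are less certain. Its version is not given in the sources used here.

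Values under 1 were set to 1 before log2 was taken. Probe sets above 4 on that scale on at least 3 of 6 arrays were tested in R 4.3.3 with limma 3.58.1 (lmFit, eBayes, two-sided, Benjamini-Hochberg, threshold 0.05) without covariates, 3 induced against 3 uninduced samples, grouped by title. Rises and falls are differences past that threshold. A fold is the antilog of the log2 difference, or "at least", against 4, for a group with no array above it, and none is given where only some were. Symbols came from GEO's platform annotation, and chromosomes and gene order from the NCBI table of GRCh38.p14, where all 234 members matched. Probe sets with several symbols, 58 with a ZNF gene among them, were left out. KRAB and SCAN classes were written by hand from general knowledge.

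Named were the 12 largest rises and falls whose groups did not overlap, up to 4 genes of each role list by smallest adjusted p, the highest and lowest gene of each run, genes at the limit, TRIM28, SETDB1 and ZNF326. Other genes and probe sets were named after their values were seen. So were chosen the level ranges, the 0.1 range of flat probe sets, the gap of 3 genes in runs, the motifs and the promoters shown. The members and lists were chosen with earlier results of these data known.

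In data simulated from the means and spreads of the 20552 probe sets, 50 were changed by each of 0.5, 1, 2 and 4 (log2). There limma recovered 60% of changes of 0.5 and 100% of those of 1, 2 or 4, with 9 wrong calls of 189. In the real comparison 62.5% of probe sets were called, a far larger share than was changed here, so these rates need not hold for it. Alternatives were no filter, a filter at 6, quantile normalization, median centring, trended and robust eBayes, array weights, a replicate block, the mean over probe sets, no _x_at or _s_at probe sets, and each array left out. Plots were made in Python 3.11.15 with matplotlib 3.10.9.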

Additional observations from a re-analysis of the deposited data

How the results depend on the processing

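Of 73 named genes 59 were called, and 51 of these stayed called under every alternative that gave a value. For none of the 73 did a called difference change sign. The calls of ZNF224, ZNF227, ZNF765, ZNF445, ZNF326, ZNF124, ZNF148 and ZNF117 were lost under at least 1 alternative (ZNF148 without _x_at and _s_at probe sets, at 0.23, adjusted p = 0.110). Of the 14 named genes that were not called 5 passed under at least 1 alternative. Of the 126 members called, 104 were called the same way with no filter, 122 after quantile normalization and 113 of 113 with the stricter filter, and 0 were called the opposite way in any of the 15 alternatives.

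The number of members that fell, 64, became 99 after quantile normalization, and the number of KRAB genes that fell, 31, became 55. Without _x_at and _s_at probe sets the KRAB genes measured were fewer, with 18 higher and 20 lower. The 0 falls among KRAB cofactors became 3 with array weights, 1 with the mean over probe sets, 5 with median centring, 4 with quantile normalization and 1 with trended and robust eBayes. The median difference of the members, 0.0023, was 0.029 with the stricter filter, -0.077 with median centring and -0.147 with quantile normalization. The cause was not tested. Leaving out 1 array at a time gave 55 to 62 higher and 53 to 67 lower members, a median of -0.014 to 0.0081, 23 to 29 higher and 22 to 31 lower KRAB genes, 23 to 26 higher and 23 to 27 lower genes without a KRAB box, and 7 to 9 higher and 0 to 1 lower cofactors, the 1 fall appearing without uninduced replicate 3.

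Whether the replicate numbers pair the samples is not stated in the labels. Deviations of same-numbered arrays from their group means correlated at -0.173, 0 and 0.18. Arrays with unlike numbers gave -0.238 to 0.209. With 3 arrays a group these values cannot decide whether the samples were paired. With the number as a block 62 members were higher and 63 lower, and 122 of the 126 calls were kept. Near the limit of detection a change cannot be seen, so the 218 ZNF genes below it were not assessed.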
